A study of Homo sapiens with 16 samples.

Results

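The regions described here are 470 places in the genome. Each had a called peak of histone H3 lysine 27 acetylation (H3K27ac) in TWEAK-treated control cells and no called peak in untreated control cells. Each nevertheless had a peak in at least 1 sample of cells without the TWEAK receptor Fn14. Peaks of all 16 lists, 1 per ChIP-seq sample, were merged where they shared 1 bp, and those seen in 2 lists or more were kept. A member had a peak in all 4 control TWEAK lists, in 0 of the 4 control untreated lists and in at least 1 of the 8 Fn14 knockout (KO) lists. Of 55219 kept regions, 470 met the rule, which is 0.851% of the regions. Together with 897 regions that had the same control pattern and no KO peak, they make up the 1367 regions gained with TWEAK in both lines (2.48% of the kept regions). The presence of a peak chose the members, so these counts are descriptions and were not tested.

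The samples came from 2 human triple-negative breast cancer lines, MDA-MB-231 and Hs578T, each as control and Fn14 KO cells, untreated or given TWEAK, with 2 replicates in each of the 8 groups. TWEAK was given at 10 ng/ml for 48 h and renewed after 24 h, and the cells had first been kept in a starvation medium (Opti-MEM) for 8 h. The KO cells were made with an inducible lentiviral CRISPR vector and guides against the gene of Fn14. The study's supplement lists Fn14 among its genotyped CRISPR clones, but how many clones a KO line stands for, and which guide a sample carried, is not given in the sources used here. The lists held 39544 to 47197 peaks, and the read depth behind them is unknown, so a missing peak means only that the caller's threshold was not reached. Of the markers of mesenchymal breast cancer cells, VIM, CD44, CAV1, AXL and FN1 had a peak at the start site in 16 of 16 lists, while ESR1, PGR, CDH1 and the immune genes PTPRC and CD3E had one in 0 lists. The luminal genes GATA3 and TFF1 and the epithelial gene EPCAM also had a peak in 16 lists, and FOXA1 in 2, so the lines were not marked by mesenchymal genes alone.

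TWEAK is a cytokine of the TNF family. It binds Fn14, a small receptor that recruits TRAF adaptor proteins and feeds the canonical and the non-canonical NF-κB pathway as well as the MAP kinases that act through AP-1. H3K27ac marks active promoters and enhancers, and NF-κB and AP-1 are among the factors that open such elements when cells respond to cytokines.

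To show the DNA of the members at both ends of the range, 120 bp from the central 500 bp of 7 of them were read from the plus strand of the hg38 genome. Each stretch was placed on an AP-1 match where the 500 bp held one, and otherwise on an NF-κB match. Where the 500 bp held neither, the middle was taken. CCDC81, INO80 and MRPS27 are the nearest protein-coding start sites of 3 of the 4 members with the highest fold enrichment in the control TWEAK lists. GBP5 stands for members at a start site, CCL5 for members near a chemokine gene, and AKR1E2 and XDH for the members with a peak in all 8 KO lists. Capitals mark matches to the NF-κB consensus or to the AP-1 motif TGANTCA on either strand.
CCDC81, chr11:86474129-86474248: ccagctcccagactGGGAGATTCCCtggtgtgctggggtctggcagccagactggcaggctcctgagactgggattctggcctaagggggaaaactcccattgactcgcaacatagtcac
INO80, chr15:41161333-41161452: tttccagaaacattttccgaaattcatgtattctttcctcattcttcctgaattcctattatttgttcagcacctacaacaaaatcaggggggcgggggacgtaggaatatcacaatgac
MRPS27, chr5:72402712-72402831: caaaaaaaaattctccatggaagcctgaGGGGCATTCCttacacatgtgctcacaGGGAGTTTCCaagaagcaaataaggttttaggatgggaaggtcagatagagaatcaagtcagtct
GBP5, chr1:89274493-89274612: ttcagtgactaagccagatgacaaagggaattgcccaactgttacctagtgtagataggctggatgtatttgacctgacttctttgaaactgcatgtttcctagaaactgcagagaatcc
CCL5, chr17:35890238-35890357: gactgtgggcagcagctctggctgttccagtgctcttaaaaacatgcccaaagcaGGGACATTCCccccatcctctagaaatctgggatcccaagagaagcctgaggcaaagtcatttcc
AKR1E2, chr10:4866814-4866933: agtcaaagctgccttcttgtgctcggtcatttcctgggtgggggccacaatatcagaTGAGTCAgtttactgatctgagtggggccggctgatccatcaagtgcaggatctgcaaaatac
XDH, chr2:31429974-31430093: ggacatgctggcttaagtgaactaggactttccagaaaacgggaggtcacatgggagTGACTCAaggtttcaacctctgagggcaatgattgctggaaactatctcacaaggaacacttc
Since the stretches were placed on matches, a match inside them only repeats that the 500 bp held one. The strong members CCDC81 and MRPS27 and the CCL5 member carried NF-κB matches and had no AP-1 match in the 500 bp. Both members present in every KO list carried an AP-1 match, and the 500 bp of the XDH member also held an NF-κB match outside the stretch shown. INO80 and GBP5 carried neither. A match is a run of letters, not evidence that a factor bound there.

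Most members were seen in few KO lists. A peak was present in exactly 1 KO list for 194 members (41.3%), in 2 lists for 101, in 3 for 85, in 4 for 57, in 5 for 19, in 6 for 5, in 7 for 7 and in all 8 for 2. Among all kept regions with any KO peak, 5.96% had a peak in exactly 1 KO list, and 56.1% of all kept regions had one in all 8. Any KO peak was found in 470 of the 1367 gained regions (34.4%) and in 51390 of all kept regions (93.1%). Of the 742 regions lost with TWEAK in both lines, with a peak in every untreated control list and in no control TWEAK list, 729 (98.2%) had one, a share near that of all kept regions, and 189 (25.5%) had one in all 8. The plot of members by number of KO lists shows this decline and the share of each line in it.

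**Figure D1:**
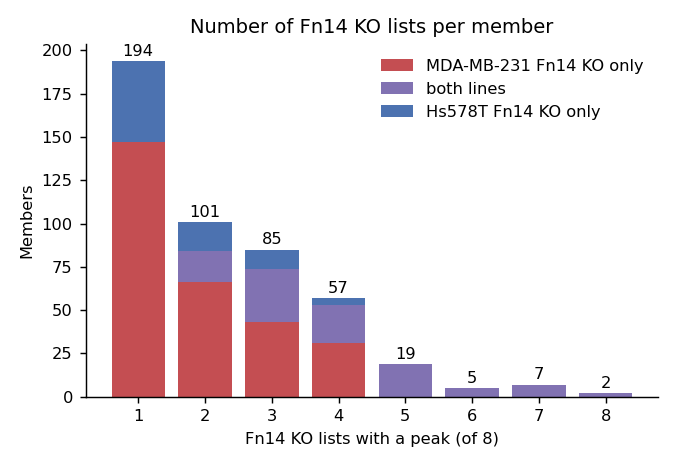
Number of members (vertical axis) with a peak in 1 to 8 Fn14 KO lists (horizontal axis), with each bar divided into members seen in MDA-MB-231 KO lists only, in Hs578T KO lists only, or in both. The bar for 1 list holds 194 of the 470 members and the bar for 8 lists holds 2.

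The KO peaks lay mostly in MDA-MB-231 cells. A peak in at least 1 MDA-MB-231 KO list was found for 391 members (83.2%), and in at least 1 Hs578T KO list for 183 (38.9%), whereas among the 51390 kept regions with any KO peak the shares were 87.8% and 93.4%. By line, 287 members (61.1%) had KO peaks in MDA-MB-231 only, 79 (16.8%) in Hs578T only and 104 (22.1%) in both. The same shares were 6.62%, 12.2% and 81.1% among the kept regions with any KO peak. A single list, MDA-MB-231 KO untreated replicate 1, held 295 members (62.8%), and the other list of that group held 131 (27.9%). The 2 MDA-MB-231 KO TWEAK lists held 151 (32.1%) and 164 (34.9%). In Hs578T, the untreated KO lists held 66 (14%) and 89 (18.9%), and the KO TWEAK lists held 86 (18.3%) and 87 (18.5%). All 4 MDA-MB-231 lists were therefore above all 4 Hs578T lists, whereas treated and untreated lists overlapped within MDA-MB-231. Between the untreated MDA-MB-231 KO lists the number of called peaks went the same way as the number of members. The first had 46295 peaks and a peak in 77.5% of all kept regions, against 39544 peaks and 65.8% in the second. The KO TWEAK lists of this line went the other way, with 41301 peaks for 151 members and 40983 for 164. The Hs578T KO lists had a peak in 77.4 to 78.1% of the kept regions, and the MDA-MB-231 KO TWEAK lists in 69.1 and 67.9%. With the rule applied to lists trimmed to 39544 peaks each, the mean share in Hs578T minus that in MDA-MB-231 was -29.7 percentage points.

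**Figure D2:**
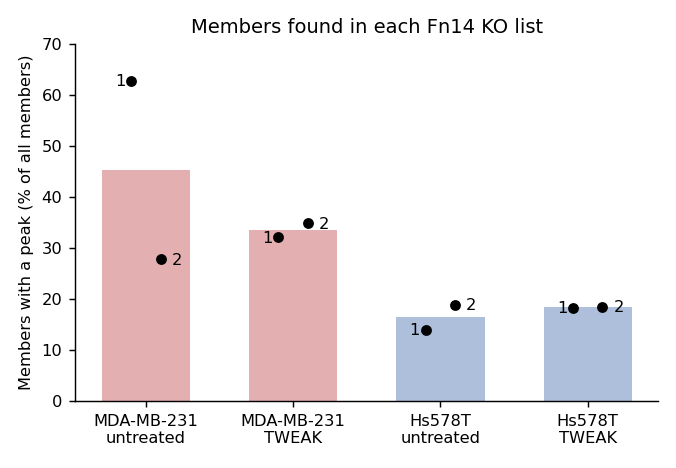
Share of the 470 members with a peak in each Fn14 KO group, in percent, with bars for the mean of the 2 lists and points for the lists. The MDA-MB-231 lists lie between 27.9 and 62.8% and the Hs578T lists between 14 and 18.9%.

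Cells without Fn14 were given TWEAK to show what the cytokine does without its receptor. The mean share of members with a peak was 26.0% over the 4 KO TWEAK lists and 30.9% over the 4 untreated ones, a difference of -4.95 percentage points. Since the rule itself asked for a KO peak, and 85 members (18.1%) entered through the first MDA-MB-231 KO untreated list alone, the shares are descriptions and no test is given on them. Per group, the share was 45.3% ± 24.7 (SD, n = 2) in MDA-MB-231 KO untreated cells, 33.5% ± 1.96 (n = 2) in MDA-MB-231 KO TWEAK cells, 16.5% ± 3.46 (n = 2) in Hs578T KO untreated cells and 18.4% ± 0.150 (n = 2) in Hs578T KO TWEAK cells. The difference with TWEAK was thus -11.8 points in MDA-MB-231, within the spread of the untreated lists, and 1.91 points in Hs578T, and these 2 values lay 13.7 points apart. Without the first MDA-MB-231 KO untreated list, 385 members remained and the TWEAK difference over both lines turned to 4.61 points.

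Between the lines, the mean share was 17.4% over the Hs578T KO lists and 39.4% over the MDA-MB-231 KO lists, a difference of -22.0 points. It was -16.2 points without the first MDA-MB-231 KO untreated list. The control lists used by the rule also bear on it, and leaving out the second untreated Hs578T control list gave -15.9 points.

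Members with KO peaks in every list of 1 treatment and in none of the other were few in number, also within a line. With any KO peak counted, 90 members (19.1%) had KO peaks in TWEAK lists only, 142 (30.2%) in untreated lists only and 238 (50.6%) in both. Among the kept regions with any KO peak these shares were 3.52%, 5.02% and 91.5%. A pattern of all 4 KO TWEAK lists and no KO untreated list was shown by 0 members (0.00724% of all kept regions), and the reverse by 0 members (0.0308%). These were counts of list patterns, with no test behind them, and nothing is read from the zeros, since the background shares were so small. In MDA-MB-231 KO cells alone, 6 members (1.28%) were seen in both TWEAK lists and neither untreated list, against 0.321% of all kept regions. The reverse was seen for 18 (3.83%), against 1.35%, so in this line the shares of both patterns lay above the background. Of all kept regions, however, 56.1% had a peak in all 8 KO lists and could show neither pattern. Nothing about treatment is therefore read from this excess. In Hs578T KO cells, 6 members (1.28%) had the TWEAK pattern, against 1.05%, and 5 (1.06%) the reverse, against 0.829%, so both shares lay near the background.

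The 6 MDA-MB-231 members with the TWEAK pattern included regions nearest to KLF4, a zinc finger transcription factor, CUX1, a homeobox transcription factor, and APLN, which encodes the peptide hormone apelin. The KLF4 member (chr9:107932838-107934206, between genes and 442356 bp from the start site) had a fold enrichment over input of 6.66 and 5.33 in the MDA-MB-231 control TWEAK lists, and 3.24 and 2.70 in the KO TWEAK lists. At the APLN member (chrX:129631543-129632549, 22407 bp from the start site) the same lists gave 4.90 and 4.38 in control cells and 4.12 and 4.29 in KO cells, so the control and KO values lay close together. The members with the opposite pattern included the one with the highest fold enrichment, that nearest to INO80. Its MDA-MB-231 KO untreated peaks had a −log10 q (the caller's adjusted significance) of only 1.10 and 1.42, where the smallest value in any list was 1.00. In the MDA-MB-231 KO TWEAK lists the KLF4 member had 2.37 and 1.04, and the APLN member 3.67 and 3.73. In Hs578T, a member covering the area next to the start site of COL16A1, a collagen gene (chr1:31666159-31667261, 78 bp away), had 4.94 and 4.74 in the control TWEAK lists and 2.93 and 3.04 in both KO TWEAK lists.

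Where members had KO peaks, most of these were weak for their list. Strength is given as the fold enrichment over input and as −log10 q, the caller's adjusted significance, of the strongest peak of the member in a list. The median −log10 q of the members was 4.49, 4.91, 4.25 and 4.44 in the 4 control TWEAK lists, and between 1.75 and 2.13 in the 8 KO lists over the members present there. Median fold enrichment was 3.94 to 4.14 in control TWEAK lists and 2.88 to 3.24 in KO lists. KO peaks were also shorter, with medians of 466 to 558 covered bp against 808 to 895 bp in control TWEAK cells. Since every list had its own threshold near a −log10 q of 1, the members were also ranked among all peaks of their list. Their median percentile was 28.1 to 31.8 in control TWEAK lists, below the middle of each list, and 9.08 to 13.7 in KO lists. Of the member peaks in KO lists, 44.4 to 66.3% had a −log10 q under 2, compared with 10.6 to 14.1% of all peaks in those lists and 7.45 to 13.8% of the member peaks in control TWEAK lists. As the rule asked for peaks in all control TWEAK lists and for any 1 KO peak, these differences were not tested.

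**Figure D3:**
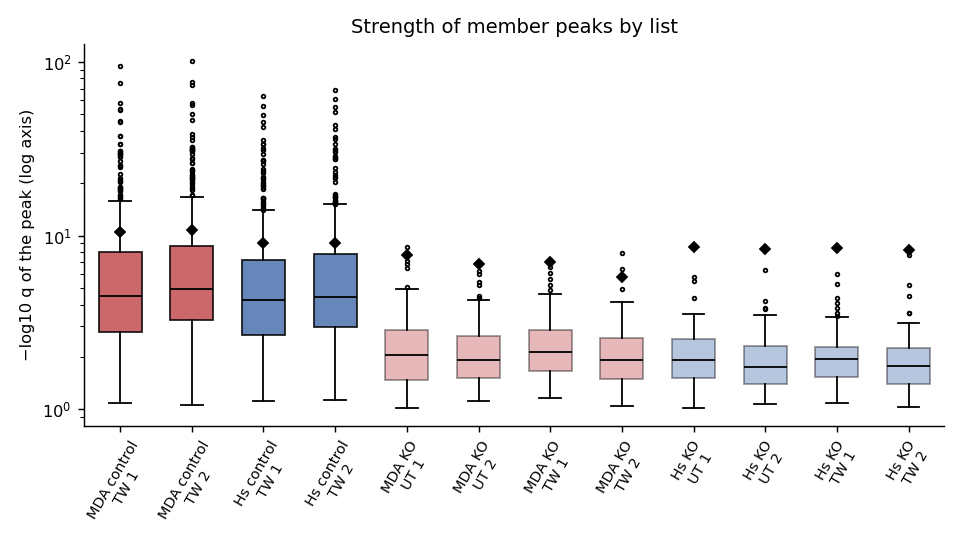
Strength of the member peaks as −log10 q (log axis) in the 4 control TWEAK lists and the 8 Fn14 KO lists, with boxes for the median and quartiles, whiskers to 1.5 times the interquartile range and diamonds for the median of all peaks of the list. Member medians lie between 4.25 and 4.91 in control TWEAK lists and between 1.75 and 2.13 in KO lists.

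Within each line the KO peaks were weaker than the control TWEAK peaks of the same region. For the 391 members with an MDA-MB-231 KO peak, the median fold enrichment was 4.21 in control TWEAK cells and 3.07 in KO cells, a median ratio of 0.745, and the KO value was lower in 352 of them (90.0%). For the 183 members with a Hs578T KO peak the values were 3.85 and 2.88, a ratio of 0.750, with the KO value lower in 164 (89.6%). The rule asked for a peak in every control TWEAK list, and no such share is given for all kept regions. Over all peaks, median fold enrichment was 5.89 and 5.88 in MDA-MB-231 control TWEAK lists and at most 5.21 in its KO lists. In this line, lower KO values were thus not particular to the members. In Hs578T these medians were 5.47 and 5.45 in control TWEAK lists and 5.19 to 5.45 in KO lists. In 27 members (5.74%) the highest KO −log10 q exceeded the highest control TWEAK value, and in 148 (31.5%) it exceeded the lowest. In 446 members (94.9%) at least 1 KO peak shared 1 bp or more with bases covered in all 4 control TWEAK lists. Regions were merged by overlap, which favours such a share, so it does not show that the peaks marked the same stretch.

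In their rank the members of treated and untreated KO lists overlapped. The mean of the list medians was the 11.5th percentile for KO TWEAK lists and 10.7 for untreated ones, a difference of 0.787. Between lines the means were 10.1 in Hs578T and 12.2 in MDA-MB-231, a difference of -2.06. These ranks come from the KO peaks that the rule used and are given without a test.

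At the edge of the rule stand members with 1 KO list and, just outside it, gained regions with 0 KO lists. The 194 members in 1 KO list had a median −log10 q of 5.07 and fold enrichment of 4.11 in control TWEAK lists, and a KO peak of 1.57 and 2.86. The 897 regions with no KO peak had 4.30 and 3.90. Control strength did not climb steadily with the number of KO lists, as the members in 4 lists had a median −log10 q of 4.2. The median of their highest KO value was 3.38, and it was 5.02 in the 2 members in all 8 lists. A highest value taken over more lists tends to be higher by itself, so nothing is read from this rise. Presence in both replicates of at least 1 KO group was found for 173 members (36.8%), against 87.1% of the kept regions with any KO peak. That number was 102 for MDA-MB-231 KO untreated, 72 for MDA-MB-231 KO TWEAK, 33 for Hs578T KO untreated and 38 for Hs578T KO TWEAK.

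The members with the highest fold enrichment in TWEAK-treated control cells had KO peaks far below their control peaks. They were chosen by their control TWEAK values, so the choice itself favoured a wide gap. Among all members, the highest KO fold enrichment was above the lowest control TWEAK value in 177 (37.7%). The member nearest to INO80, the ATPase of a chromatin remodelling complex, lay between genes 43340 bp from its start site (chr15:41159620-41163166). Its fold enrichment was 21.7 and 21.5 in MDA-MB-231 control TWEAK lists and 17.0 and 20.2 in those of Hs578T. KO peaks were called in 4 lists, at 2.53 and 2.86 in MDA-MB-231 KO untreated cells and at 2.61 and 2.69 in the second untreated and second TWEAK lists of Hs578T. Every KO value was thus far under every control TWEAK value.

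The next members by strength repeated this contrast. The member nearest to ZNF644, a zinc finger protein (chr1:91079506-91081753, between genes), reached 15.5, 17.8, 17.4 and 16.9 in the control TWEAK lists and 2.93 to 3.78 in 6 KO lists. A member in an intron of ME3, a mitochondrial malic enzyme, with CCDC81 as the nearest start site (chr11:86473090-86475668), had 18.7, 19.0, 12.2 and 12.6 in control TWEAK cells. Its KO values were 4.26, 3.95, 4.29 and 3.48 in the 4 MDA-MB-231 lists and 2.38 in the second Hs578T untreated list. The member nearest to MRPS27, a mitochondrial ribosomal protein (chr5:72401662-72403970), had 15.8, 19.2, 12 and 13.3 in control TWEAK cells, and 3.33, 3.52, 3.01 and 3.84 in the MDA-MB-231 KO lists, with none in Hs578T KO cells.

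The other 6 of the 10 strongest were nearest to DENND2D, SEMA4A, NAV2, CMAS, TRIO and THEMIS, with mean fold enrichments from 11.7 to 14.6 in control TWEAK lists. SEMA4A, a semaphorin guidance molecule, held its member in an intron (chr1:156164354-156165987) with 15.4 and 15.6 in MDA-MB-231 and 9.74 and 9.53 in Hs578T control TWEAK cells. Its only KO peaks were those of the untreated MDA-MB-231 KO cells, at 3.59 and 4.29. The member nearest to TRIO, a guanine nucleotide exchange factor, and the member in an intron of the ganglioside synthase gene ST8SIA1 each had 1 KO peak, at 2.74 and 2.86. The plot of the 10 strongest members, chosen by their control TWEAK values, shows the control TWEAK points apart from all KO points in every row.

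**Figure D4:**
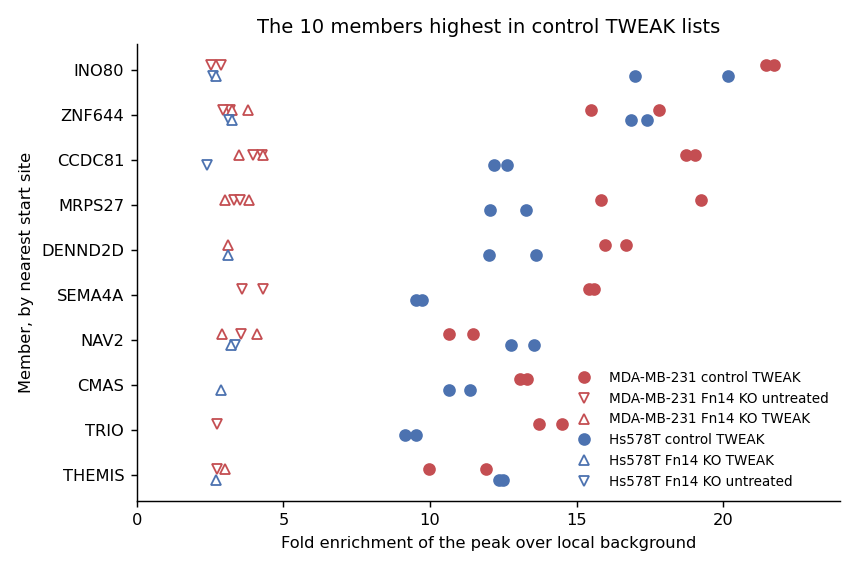
Fold enrichment over input in each list for the 10 members with the highest mean in the control TWEAK lists, named by nearest start site, with filled circles for control TWEAK, upward triangles for Fn14 KO TWEAK and downward triangles for Fn14 KO untreated lists, in red for MDA-MB-231 and blue for Hs578T. The control TWEAK values lie between 9.15 and 21.7 and the KO values between 2.38 and 4.29.

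The 9 members in 7 or 8 KO lists ranged widely in control strength, and at several of them the KO peaks came near the control peaks. The member between genes nearest to XDH, the purine-degrading xanthine dehydrogenase (chr2:31429489-31430591, 14747 bp from its start site), had 5.93, 5.56, 4.16 and 4.71 in control TWEAK lists. In the MDA-MB-231 KO lists it had 5.13 and 3.42 untreated and 4.63 and 4.26 with TWEAK, and in the Hs578T KO lists 3.75, 3.79, 3.06 and 2.91. Within each line both control TWEAK values were above all KO values. The second member in all 8 lists, nearest to AKR1E2, an aldo-keto reductase (chr10:4865619-4868053), had 3.75, 4.05, 3.54 and 3.68 in control TWEAK cells and 2.89 to 3.46 in KO cells, just below them.

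The 7 members in 7 KO lists included those nearest to FEZ1, COP1, ZEB2, MZB1 and FAR2, of which the ZEB2 member lay 1002964 bp from the start site. The FEZ1 member, in an intron (chr11:125514124-125515312), was the strongest, with 7.54, 7.0, 7.86 and 8.27 in control TWEAK cells and 2.90 to 3.89 in KO cells. COP1 encodes a ubiquitin ligase whose substrates include JUN, and its member (chr1:176241109-176242440, 33823 bp away) had 4.38 to 6.52 in control TWEAK cells and 2.76 to 4.45 in KO cells.

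Members tied to 1 line in the KO cells were mostly those of MDA-MB-231. A peak in all 4 MDA-MB-231 KO lists and no Hs578T KO list was found for 31 members (6.6%), compared with 1.09% of all kept regions. The opposite pattern was found for 4 members (0.851%), compared with 3.22%, and these were nearest to GPR37L1, FBLIM1, PPP3CA and STOML1. After MRPS27, the strongest of the 31 were at PRLR, ARHGEF6, GBP5 and MATN2. PRLR encodes the prolactin receptor, and its member covered an annotated start site (chr5:35117303-35119874) with 8.57 and 9.28 in MDA-MB-231 and 4.45 and 5.35 in Hs578T control TWEAK cells. The MDA-MB-231 KO lists gave 3.38 and 3.07 untreated and 3.72 and 3.39 with TWEAK. The member of PPP3CA, the catalytic subunit of calcineurin (chr4:101205156-101206712, in an intron), had 4.38, 3.71, 3.48 and 3.24 in the Hs578T KO lists. The Hs578T control TWEAK lists gave 3.03 and 3.31, so all KO values but the lowest were above both control values.

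Within the KO TWEAK cells, many members were absent from both replicates. A peak in both control TWEAK lists and neither KO TWEAK list of the same line was shown by 227 members (48.3%) in MDA-MB-231, against 6.21% of all kept regions, and by 335 (71.3%) in Hs578T, against 6.93%. The rule required the control TWEAK peaks, so nothing is read from these shares against the background.

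Members at gene starts were few. Of the 470, 28 (5.96%) lay within 2 kb of a protein-coding start site, 47 (10.0%) overlapped an exon elsewhere, 182 (38.7%) lay in introns and 213 (45.3%) between genes. The 897 gained regions without a KO peak had 5.13% at start sites and 47.4% between genes, and all kept regions had 25.1% and 35.2%. The members were a median of 1167 bp wide and 34.4 kb from the nearest start site, and the regions without a KO peak were 1108 bp wide and 36.9 kb away, against 1702 bp and 18.4 kb for all kept regions. An untreated control peak lay within 10 kb of 223 members (47.4%) and within 1 kb of 11 (2.34%), against 48.3% and 1.56% of the regions without a KO peak.

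The strongest members at start sites were those of PRLR, EMSY, GBP5, PI3, MATN2, ACTN2, HCAR2 and FAM83A. The member at GBP5, an interferon-inducible guanylate-binding protein (chr1:89273623-89275482, 763 bp upstream), had 7.77 and 7.85 in MDA-MB-231 and 5.27 and 4.31 in Hs578T control TWEAK cells. In MDA-MB-231 KO cells it had 3.73 and 4.32 untreated and 5.69 and 3.99 with TWEAK, so the treated and untreated KO values overlapped. The member at EMSY, a BRCA2-interacting protein (chr11:76542270-76543811), had 4.77, 4.99, 7.16 and 5.86 in control TWEAK cells and 3.02 to 3.43 in 5 KO lists. At PI3, which encodes the elastase inhibitor elafin (chr20:45174005-45175098), the control TWEAK values were 5.91, 5.90, 4.38 and 5.79, and the single KO peak, in the first MDA-MB-231 KO TWEAK list, was at 2.86.

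The members were nearest to 444 different protein-coding genes, 2.22% of the 20020 annotated, and 24 of these genes had more than 1 member. Only 14459 of the annotated genes were nearest to any kept region, so 2.22% is a low background for the gene lists. Of 148 genes in 11 lists of TWEAK-related functions, 14 (9.46%) were nearest to a member. The lists were chosen with earlier results of these data known, so these counts are a description. For 77 genes a member and a gained region without a KO peak had the same nearest start site, which is 17.3% of the members' genes and 9.57% of the 805 genes nearest to the other gained regions.

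Among NF-κB subunits and feedback genes, 3 of 14 were nearest to a member, and so were 3 of 14 for the regions without a KO peak. TNIP1 encodes a protein that binds the deubiquitinase A20, and its member (chr5:151067526-151070822, in an intron) had 4.72, 4.79, 3.42 and 4.81 in control TWEAK cells and 1 KO peak, at 2.74 in the second MDA-MB-231 KO untreated list. TNFAIP3, the gene of A20 itself, had a member 173714 bp away (chr6:137692696-137693500) with 2.82 to 5.02 in control TWEAK cells and 2.89 and 2.90 in MDA-MB-231 KO untreated cells. NFKB1, which encodes the precursor of p50, had 2 members overlapping exons, each with 1 KO peak. None of the 12 genes of Fn14-proximal signalling, such as the TRAF adaptors, and none of the 13 AP-1 and small MAF genes was nearest to a member, and none was nearest to a gained region without a KO peak.

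Of 20 cytokine and chemokine genes, 1 was nearest to a member and 5 to a region without a KO peak. This member lay 8756 bp from the start site of CCL5, a chemokine that attracts T cells and monocytes (chr17:35889549-35891082). It had 9.65 and 10.3 in MDA-MB-231 and 6.17 and 5.66 in Hs578T control TWEAK cells. The 2 KO peaks were 3.16 in the first MDA-MB-231 KO untreated list and 3.26 in the second MDA-MB-231 KO TWEAK list, so 1 was treated and 1 was not. Of the 16 proteases and inhibitors, only TIMP1, the metalloproteinase inhibitor, was nearest to a member. That member (chrX:47579344-47580317, in an intron of SYN1) had 4.84, 3.97, 4.15 and 4.51 in control TWEAK cells and 2.76 to 3.05 in 4 KO lists.

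Genes of epithelial-mesenchymal transition and TGF-β signalling gave 4 of 16, the same number as for the regions without a KO peak. ZEB2, a repressor of epithelial genes, was the nearest gene of 3 members, which lay 116527, 752464 and 1002964 bp from its start site. The strongest of these (chr2:144637584-144639410, 116527 bp away) had 8.73, 9.45, 10.9 and 11.1 in control TWEAK cells and 3.10 and 3.21 in both MDA-MB-231 KO untreated lists. The member nearest to TGFB2, which encodes a TGF-β ligand (chr1:218573535-218576820, 227300 bp away), had 4.94 to 5.88 in control TWEAK cells and 2.92 in the first Hs578T KO TWEAK list. INHBA, the gene of an activin subunit, had a member 460782 bp away with 1 KO list. SMAD3, which transduces TGF-β signals, had a member 24667 bp away with 4 KO lists.

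Adhesion genes gave 3 of 15, namely CD44, the hyaluronan receptor, and the integrin genes ITGA2 and ITGB6. The CD44 member (chr11:35135029-35136146, 2736 bp upstream) had 3.47, 4.94, 3.04 and 3.43 in control TWEAK cells and 2.62 in 1 KO list. The NAD list gave 2 of 11. These were NMNAT2, an NAD-synthesising enzyme whose member (chr1:183317997-183318893, in an intron) had 3.93 to 5.43 in control TWEAK cells and 2.80 and 2.69 in MDA-MB-231 KO untreated cells, and NAMPT, the rate-limiting enzyme of NAD salvage, whose member (chr7:106245826-106250506) had 2.87 to 3.12 in control TWEAK cells and 2.41 to 2.90 in 3 KO lists. The lists of 10 YAP and TEAD genes, 11 growth factor genes and 10 apoptosis genes had 0 genes nearest to a member, against 2, 3 and 2 nearest to a gained region without a KO peak.

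The share of gained regions that had a KO peak varied along the genome. On chromosome 1 it was 45.2% (66 members), on chromosome 11 48.3% (28 members) and on chromosome 8 44.6% (29 members), and it was lower on chromosome 6, with 18.6% (19 members), and chromosome 4, with 22.6% (21 members). Of the 29 chromosome 8 members, 26 had a peak in MDA-MB-231 KO cells and 3 in Hs578T KO cells only. DNA copy number was not measured here, and its part in this was not tested. Members were mostly single, with 29 of the 470 falling into 14 groups spaced by at most 50 kb. The largest of these held 3 members at DDX10, an RNA helicase gene on chromosome 11, which were in 1, 1 and 2 KO lists.

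The sequence of the members was described with 3 motifs, searched on both strands of the 500 bp around the centre of each region. The AP-1 motif TGANTCA was found in 221 members (47.0%), in 41.4% of the gained regions without a KO peak and in 36.1% of all kept regions, or 43.6% of the kept regions over 2 kb from a start site. The NF-κB consensus was found in 126 members (26.8%), in 38.2% of the gained regions without a KO peak and in 8.60% of all kept regions. The TEAD motif GGAATG, which can overlap an NF-κB match, was found in 32.8%, 32.4% and 29.1%. The NF-κB share of the members was thus between that of all kept regions and that of the other gained regions.

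The motif shares varied with the number and kind of KO lists. Members in 1 KO list had an NF-κB match in 29.4% and an AP-1 match in 41.2%, and the 90 members in 4 or more KO lists in 22.2% and 54.4%. The 104 members with KO peaks in both lines had an NF-κB match in 18.3%, against 29.3% of those seen in MDA-MB-231 only and 29.1% of those seen in Hs578T only. AP-1 matches were found in 47.1%, 49.8% and 36.7% of the same sets. Median GC content was 43.2% in members and 42.6% in the gained regions without a KO peak. The sets were chosen by their peaks and no test was made on these shares.

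**Figure D5:**
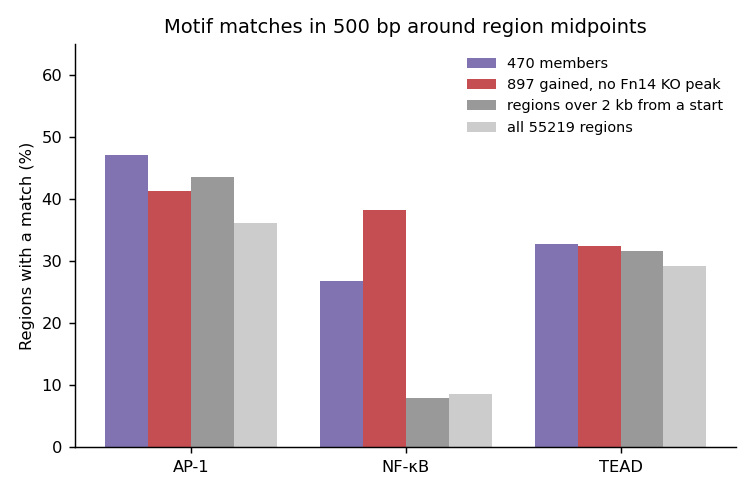
Share of regions, in percent, with at least 1 match to the AP-1, NF-κB or TEAD motif in the central 500 bp, for the 470 members, the 897 gained regions without an Fn14 KO peak, kept regions over 2 kb from a start site and all 55219 kept regions. For NF-κB the members, at 26.8%, lie between the other gained regions, at 38.2%, and all kept regions, at 8.60%.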

How the data were processed

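H3K27ac ChIP-seq peak lists of 16 samples were used, 1 list per sample, in 8 groups of 2 replicates taken from the labels. The authors made each list by read trimming (Trimmomatic), alignment with Bowtie2 to the hg38 build, peak calling in each sample against input (MACS2) and removal of blacklisted regions. Versions are not given in the sources used here. Each deposited list gives 4 columns of values per peak, of which fold enrichment over input, a ratio, and −log10 q were used. The deposited score is 10 times −log10 q with decimals dropped, and the deposited −log10 p was not used for any value. The smallest −log10 q was between 1.00 and 1.02 in every list. Read depth is not in the lists and is unknown, so no counting interval could be given. H3K27ac does not show whether the KO cells lack Fn14.

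BED starts, counted from 0, were made 1-based. Peaks of all lists were merged at 1 bp of overlap, and a list had a peak in a region if any of its peaks fell there. Genes are the nearest protein-coding start sites of GENCODE release 44. Shares and ranks of members in the 8 KO lists were compared as means and differences. Permutation tests planned for them are not reported, since the rule used the presence of KO peaks. The code was tested on simulated data. Members, gene lists and motifs were chosen with earlier results of these data known.

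Named members followed 1 rule: those in the most KO lists, those with the highest control TWEAK fold enrichment, those with treatment or line patterns, those within 2 kb of a start site, and those nearest to listed genes, each in order of strength. Alternatives used only peaks with a −log10 q of at least 2, trimmed lists, 50% coverage, merging within 500 bp, shared bases, a replicate block, other strata, fold enrichment in place of rank, and each list left out in turn. Python 3.11.15, NumPy 2.4.6, SciPy 1.17.1 and Matplotlib 3.10.9 were used. Some named members, a marker and a sequence are not reported here.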

Additional observations from a re-analysis of the deposited data

How the results depend on the processing

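The choice of members depended on the processing more than their number did. With peaks of a −log10 q of at least 2 there were 374 members, of which 198 were among the 470, with lists trimmed to 39544 peaks 514 (221 shared), and with 50% coverage of the region 488 (125 shared). Leaving out 1 list at a time gave 385 to 715 members, and the highest number, 715, came without Hs578T control untreated replicate 1.

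The KO share difference between TWEAK and untreated lists ranged from -14.2 to 4.61 points with 1 list left out, was 4.61 without MDA-MB-231 KO untreated replicate 1 and 0.778 with trimmed lists, so its direction depended on that list and on list length. The difference of this effect between lines ranged from -4.55 to 32.3, with -4.55 without the same list. The share difference between lines ranged from -31.8 to -15.9 points. Other ways of exchanging the line labels leave its value, -22.0, as it is. The rank difference between treatments ranged from -0.182 to 1.74 with 1 list left out, and turned to -0.917 with a −log10 q of at least 2, to -0.182 without MDA-MB-231 control TWEAK replicate 1 and to -0.171 without MDA-MB-231 KO untreated replicate 2. The rank difference between lines ranged from -3.15 to -0.981 with 1 list left out and was 0.610 with 50% coverage. The cause of these changes was not tested.

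The labels do not say whether replicate numbers pair the samples. The correlation of replicate differences between treated and untreated lists was 0.0254 and 0.0356 in MDA-MB-231 control and KO cells and -0.00172 and 0.0534 in those of Hs578T. With 2 replicates in each group, these low values cannot show that the samples were unpaired. A replicate block leaves the share difference at -4.95 points and the rank difference at 0.787, since it changes only the test, which is not reported.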
